A study of Mus musculus with 24 samples.

Results

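Cytosolic ribosomal proteins are the protein subunits of the ribosomes that translate nuclear-encoded mRNAs, and this account follows the mouse genes that encode them through the activation of CD4+ T cells. The genes were chosen by name: protein-coding mouse genes whose symbol starts with Rpl (large subunit) or Rps (small subunit), without the Rps6k kinases, symbols with -ps and Rps19bp1. Of the 54446 rows of the count table, 403 carried a symbol starting with Rpl or Rps, and 85 met the rule, 52 Rpl and 33 Rps genes. The rule itself uses no measured value. Of the 85, 83 passed the filter on low counts and were tested. The other two, Rpl10l and Rpl3l, known as testis and muscle relatives of Rpl10 and Rpl3, stayed at or under 0.145 CPM (counts scaled to a common library total) in every library.

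The 24 libraries came from splenic CD4+ T cells of C57BL6 mice. In all, 3 mice labelled WT (mice 1, 3 and 4) and 3 labelled Aim2-/- (mice 1, 2 and 4) each gave cells for 4 time points of anti-CD3/CD28 (0, 3, 6 and 24 h), antibodies that engage the T cell receptor and its CD28 co-receptor. AIM2 is a cytosolic sensor of double-stranded DNA, and the Aim2-/- mice lacked it in the whole animal, not in T cells alone, so that cells around the T cells lacked it too. The 0 h libraries were unstimulated cells. Animals were matched for age and sex, whose values were not given in the sources used here.

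In resting lymphocytes the ribosome content is low, and antigen receptor signals are known to raise it before the cells divide. Mammalian ribosomal protein mRNAs begin with a run of pyrimidines, the 5′ terminal oligopyrimidine (TOP) motif, through which mTORC1 and the RNA-binding protein LARP1 regulate their loading onto ribosomes. Levels of mRNA, which are measured here, therefore show only 1 layer of the control. They are relative to the other mRNA of a library, and mRNA per cell was not measured. Ribosomal protein genes have also left many processed pseudogenes in mammalian genomes, so short reads from these genes can match several places.

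That sharing was strong for 51-base reads, the read length in the general methods of the study. For each gene, every 51-base word of its shortest principal coding mRNA was looked up, on both strands, in all annotated transcripts (GENCODE M21, GRCm38). The share of words found in no other annotated gene ranged from 1.36% (Rps27) to 100%, with a median of 40.5%. It was under 50% for 54 of the 85 genes, and only 3 genes shared no word at all. The median gene shared words with 9 other genes, and Rpl7a with 122. Copies outside the annotation were not seen by this count. The 3 coding stretches below show the range, each a 51-base word of the coding sequence, as it stands in the GENCODE M21 transcripts. Positions count from the 5′ end of the mRNA. The Rpl8 stretch (bases 675 to 725) was in 1 pseudogene, the Rps6 stretch (557 to 607) in 13 pseudogenes, and the Rps27 stretch (66 to 116) in 4 other genes, of which 3 were pseudogenes.
Rpl8: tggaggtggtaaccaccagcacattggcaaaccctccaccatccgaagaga
Rps6: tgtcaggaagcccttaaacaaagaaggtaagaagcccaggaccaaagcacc
Rps27: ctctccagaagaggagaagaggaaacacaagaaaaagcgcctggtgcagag

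Library totals lay between 19715161 and 21627018 counts. All 7 CD4 T cell markers (Cd3e, Cd3d, Cd3g, Cd4, Trac, Lck and Cd28) were detected, with a summed level of 2943 to 4713 CPM over the 24 libraries. Markers of other cells were present at lower levels, and some moved with the genotype label. Summed myeloid markers lay at 56.3 to 76.8 CPM in WT and 197 to 573 CPM in Aim2-/- libraries at 0 h, and 4 of 9 were called higher in Aim2-/- (2 of 9 without WT mouse 1). In the fit on all 24 libraries, 3.24% of all tested genes were called higher there. The 7 B cell markers summed to 11.0 to 14.99 CPM against 17.7 to 49.5 CPM, the 6 erythroid markers to 7.71 to 71.8 CPM against 21.1 to 337 CPM, the 4 NK markers to 65.8 to 79.1 CPM against 132 to 155 CPM, and the 2 CD8 T markers to 9.77 to 11.4 CPM against 8.12 to 10.9 CPM. By 24 h the summed myeloid level had gone to 13.6 to 26.3 CPM in WT and 37.7 to 259 CPM in Aim2-/- libraries. The part of these cells in the results was not tested beyond a fit with marker scores, given where it matters. In such bulk samples, fewer cells of a type and less RNA per cell cannot be told apart.

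One mouse went against its label. At 0 h the Aim2 level was 21.5 CPM in the library labelled WT mouse 1, against 75 and 67.5 CPM in WT mice 3 and 4 and 15.7, 20.1 and 19.0 CPM in the Aim2-/- mice. Its 24 h library held 5.57 CPM, the other WT mice had 34.02 and 38.7 CPM, and the Aim2-/- mice ranged from 5.28 to 7.15 CPM. Reads were still counted over Aim2 in the Aim2-/- libraries, and which part of the gene they covered cannot be read from a table of gene counts. Below, WT and Aim2-/- are the labels, and the differences between genotypes are also given without WT mouse 1.

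Together the 85 genes took 1.97% to 3.19% of the counts of a library. In WT mice the share was 2.37% ± 0.288 (SD, n = 3) before stimulation, then 2.26% ± 0.111 and 2.38% ± 0.234 at the 2 early times, and 2.81% ± 0.0625 at 24 h. In Aim2-/- mice it was, in the same order, 2.28% ± 0.315, 2.19% ± 0.263, 2.52% ± 0.299 and 3.02% ± 0.215. The 24 h libraries lay above all 0 h libraries of their genotype, while the 0, 3 and 6 h libraries overlapped. At 0 h the lowest share of each genotype was in mouse 1, with 2.07% in WT mouse 1 and 1.97% in Aim2-/- mouse 1. In all 6 mice the share was higher at 24 h than at 0 h. Rows named as pseudogenes (-ps) of the members took far less, between 0.0120% and 0.0273% of a library.

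**Figure D1:**
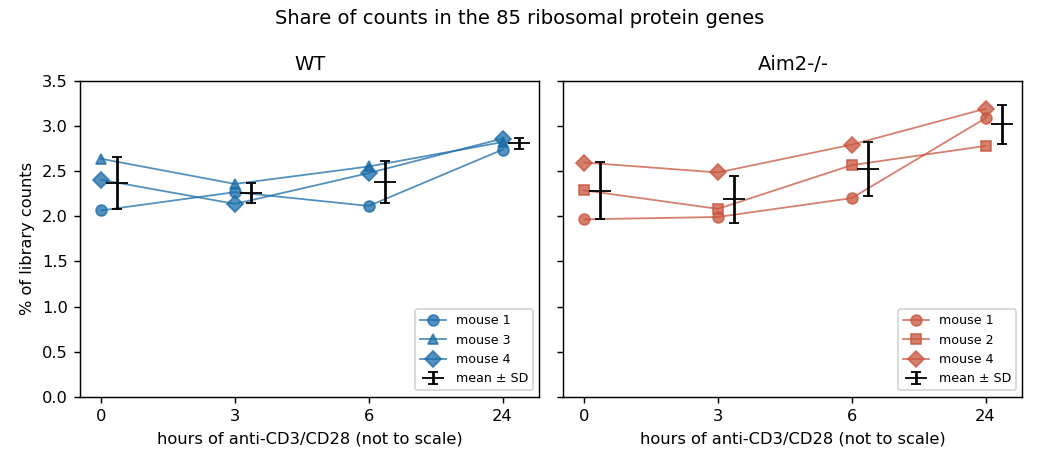
Share of library counts (%, y axis) in the 85 ribosomal protein genes at 0, 3, 6 and 24 h (x axis, not to scale), WT left and Aim2-/- right. Lines join the libraries of 1 mouse and black marks give mean ± SD (n = 3); all 6 mice end above their own start, and mouse 1 starts lowest in each panel.

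Levels per length differed widely between the genes. High mean levels over the 24 libraries were those of Rplp1 (2787 CPM per kb of mRNA), an acidic protein of the stalk that recruits elongation factors, Rpl8 (2320), Rps15 (1705) and Rpl4 (1658). The lowest among tested members were Rpl39l (2.08 CPM per kb), a testis-enriched relative of Rpl39, and then Rpl24 (2.35), Rps16 (4.87), Rps23 (5.69) and Rpl23a (5.78), all of them core subunits. Of these 4, Rpl24 and Rpl23a had unique shares of 18.3% and 14.5%, Rps23 48.4% and Rps16 58.6%, and Rps16 shared words with 68 other genes. Of the exonic bases of Rpl24, 47.0% are shared on the same strand with Gm28037, and 59.7% of those of Rpl23a lie opposite Tlcd1. The part of such overlap in these low levels was not tested. Over the 83 tested members, level per kb and unique share had a Spearman rho of 0.468, a description across genes that come from the same libraries. Rps6, which encodes the main ribosomal substrate of the S6 kinases, had 15.5% unique words and stayed between 2.61 and 8.82 CPM in the 24 libraries. How reads that match several genes were counted was not given in the sources used here.

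**Figure D2:**
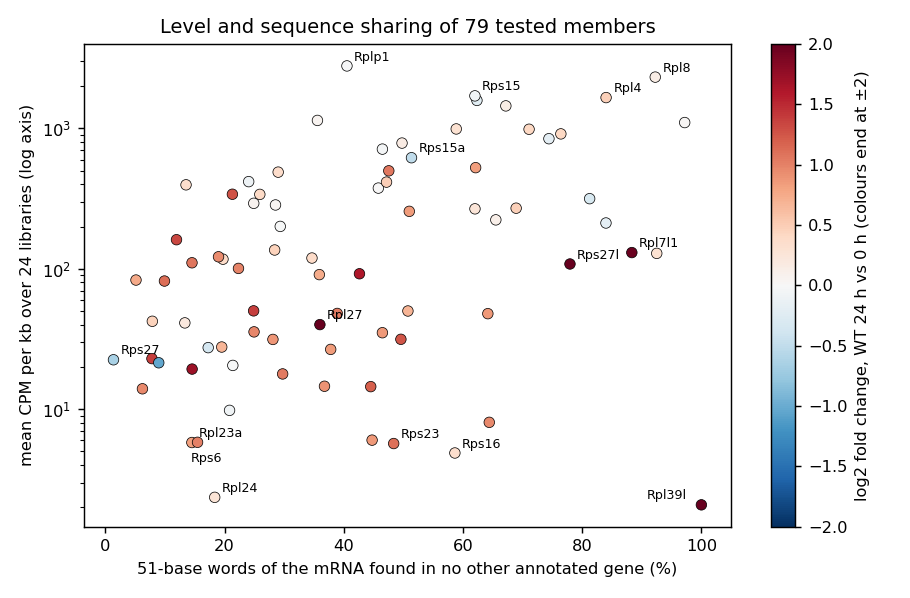
Mean level of 79 tested members over 24 libraries (CPM per kb, y axis, log scale) against the share of its 51-base words found in no other annotated gene (%, x axis), coloured by the log2 fold change at 24 h in WT. High levels gather at the right, with exceptions at both ends: Rplp1 is highest with 40.5% unique words, and Rpl39l is lowest with 100%.

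The first comparison asked how ribosomal protein mRNAs changed in WT cells after 3 h. Few moved. In edgeR's quasi-likelihood test, with Benjamini-Hochberg adjustment over all tested genes, 10 members rose and 2 fell at an adjusted p under 0.05, against a background of 16.2% of the 15325 tested genes rising and 16.4% falling. For the members these shares are 12% and 2.41%, and their median log2 fold change was −0.097, against 0.015 over all tested genes. Among the called members, Rpl10a, Rps10 and Rpl7l1 rose most. Rpl10a, a subunit near the exit site with 11.9% unique words, was at 55.0, 65.9 and 62.6 CPM in WT mice 1, 3 and 4 at 0 h and at 123, 146 and 92.8 CPM at 3 h. Its 3 h libraries all lay above those at 0 h, a log2 fold change of 0.98 ± 0.165 (SE, edgeR adjusted p = 8.98e-05). Rps10, at the mRNA entry of the small subunit, went from 6.20, 6.10 and 6.34 CPM to 10.6, 13.4 and 10.4 CPM (log2 fold change 0.89 ± 0.126, edgeR adjusted p = 1.43e-05), with no overlap. It had 7.81% unique words, and it did not pass the threshold when its -ps rows were added to it.

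The 2 genes called lower at 3 h in WT were Rpl22l1 and Rpl30. Rpl22l1 is the paralog of Rpl22, a subunit required in the development of αβ T cells, and Rpl22 protein is known to repress it. Its level was 72.3, 66.6 and 58.1 CPM at 0 h and 49.4, 49.5 and 48.4 CPM at 3 h (log2 fold change −0.42 ± 0.128, edgeR adjusted p = 0.0147). The groups did not overlap. Rpl30, which binds its own pre-mRNA in yeast, changed by −0.36 ± 0.108 (edgeR adjusted p = 0.0129). Without WT mouse 1, 4 members were called higher and 1 lower at 3 h, and without WT mouse 3, 3 were called higher and none lower.

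With mouse as a block, which removes the level each mouse carries through all times, the split at 3 h was 16 higher and 10 lower in WT (all tested genes in the same fit: 21.2% and 21.5%). The main test gave 10 and 2. A model with library totals instead of TMM factors gave 18 higher and 1 lower (all genes 21.9% and 11.8%), and it moved the median of all tested genes by itself, to 0.122. A correction for GC content and length gave 10 higher and 8 lower (all genes 16.8% and 16.5%). Under library totals the members' median turned to 0.014, still below that of all genes.

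In Aim2-/- cells at 3 h, 9 members rose and 1 fell, against a background of 16.1% and 14.6%. The median log2 fold change was −0.073. The largest rise was that of Rpl38, a subunit tied to the translation of Hox mRNAs, which lay at 0.969, 1.18 and 0.837 CPM in Aim2-/- mice 1, 2 and 4 at 0 h and at 2.02, 2.20 and 2.64 CPM at 3 h. That is a log2 fold change of 1.19 ± 0.271 (edgeR adjusted p = 0.00199) at a level of few CPM. Rpl10a rose by 0.74 ± 0.165 on the log2 scale (edgeR adjusted p = 0.00169) and Rpl23a by 0.71 ± 0.243 (edgeR adjusted p = 0.0319). With mouse as a block the split was 14 higher and 15 lower, so that the lower calls were then in the majority (all genes 20.8% and 20.3%). Fitted on the compared libraries alone, 5 were called, all higher. Without Aim2-/- mouse 4, 3 were called, and without mouse 2, 6, all of them higher.

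At 6 h some members had risen, in shares below those of all tested genes. In WT 19 members rose and 3 fell, 22.9% and 3.61% (background 26.4% and 24.8%), and in Aim2-/- 20 rose and 2 fell, 24.1% and 2.41% (background 28.5% and 22.7%). The members' medians were 0.057 and 0.224, beside 0.019 and 0.078 for all tested genes. Rps27l, a paralog of Rps27 and a p53 target, rose most in both, by 1.58 ± 0.22 in WT (edgeR adjusted p = 3.59e-06) and by 1.46 ± 0.217 in Aim2-/- (edgeR adjusted p = 1.01e-05). Among called members it was followed in WT by Rpl7l1 (1.41) and Rpl10a (1.32), and in Aim2-/- by Rpl7l1 (1.13) and Rpl15 (1.04). Rps27 fell in both genotypes, by 0.68 in WT and by 0.67 in Aim2-/-. Rpl22l1 was also called lower in WT at 6 h (−0.48) and was at −0.06 in Aim2-/-, and the difference between these responses had an unadjusted p of 0.0281 and an adjusted p of 0.302 (0.164 and 0.629 without WT mouse 1). In WT, leaving out mouse 1 gave 19 higher and 2 lower.

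With the mouse block the 6 h counts were 24 higher and 10 lower in WT, where all tested genes stood at 30.1% and 29.1%, and 33 higher and 5 lower in Aim2-/-, where they stood at 32.9% and 27.1%. The GC and length correction gave 17 higher and 11 lower in WT (all genes 27.1% and 24.6%) and 12 higher and 12 lower in Aim2-/- (28.3% and 21.7%). With library totals 35 were higher and 1 lower in Aim2-/- (33.7% and 18.2%). Between 3 h and 6 h, 5 rose and 1 fell in WT (25.7% of all tested genes were called in either direction), and 14 rose and 1 fell in Aim2-/- (23.3%, with 13.4% higher and 9.89% lower). The largest called rises of this step were those of Rps27l (0.99), Rpl7l1 (0.75) and Rpl15 (0.59) in WT, and of Rps27l (0.97), Rpl15 (0.76) and Rps29 (0.74) in Aim2-/-. The 1 called lower was Rps13 in WT (−0.50) and Rpl24 in Aim2-/- (−1.26), the latter at 2.75, 2.66 and 1.55 CPM at 3 h and 0.659, 1.43 and 0.818 CPM at 6 h. With the mouse block these became 14 and 1 in WT (all genes 18.8% and 17.3%) and 29 and 1 in Aim2-/- (20% and 15.5%).

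By 24 h most ribosomal protein mRNAs stood higher. In WT 47 members rose and 3 fell, against a background of 36.6% rising and 34.8% falling, 71.4% in either direction. In Aim2-/- 56 were called higher and none lower (background 36.8% and 33.5%, 70.3% in all), with 57 members at an unadjusted p under 0.05 in either direction. The median log2 fold change over the 83 tested members was 0.462 in WT and 0.743 in Aim2-/-, beside −0.013 and 0.03 over all tested genes, and 67 and 77 members had a fold change above 0. The share of members that rose, 56.6% in WT and 67.5% in Aim2-/-, thus lay above the background, and the share that fell, 3.61% and 0%, below it. Without WT mouse 1 the WT counts were 40 higher and 2 lower. With mouse as a block they were 53 higher and 6 lower in WT, and 65 and 0 in Aim2-/-. Marker scores of B cells, myeloid and erythroid cells in the model gave 36 higher and 2 lower in WT, and 49 and 0 in Aim2-/-. The GC and length correction gave 37 and 5, and 47 and 4. Shares of all tested genes under these alternatives are not given here, so their counts cannot be set against a background. All 7 CD4 T cell markers were called lower at 24 h in both genotypes, with a summed level of 2943 to 3159 CPM against 4422 to 4713 CPM at 0 h.

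**Figure D3:**
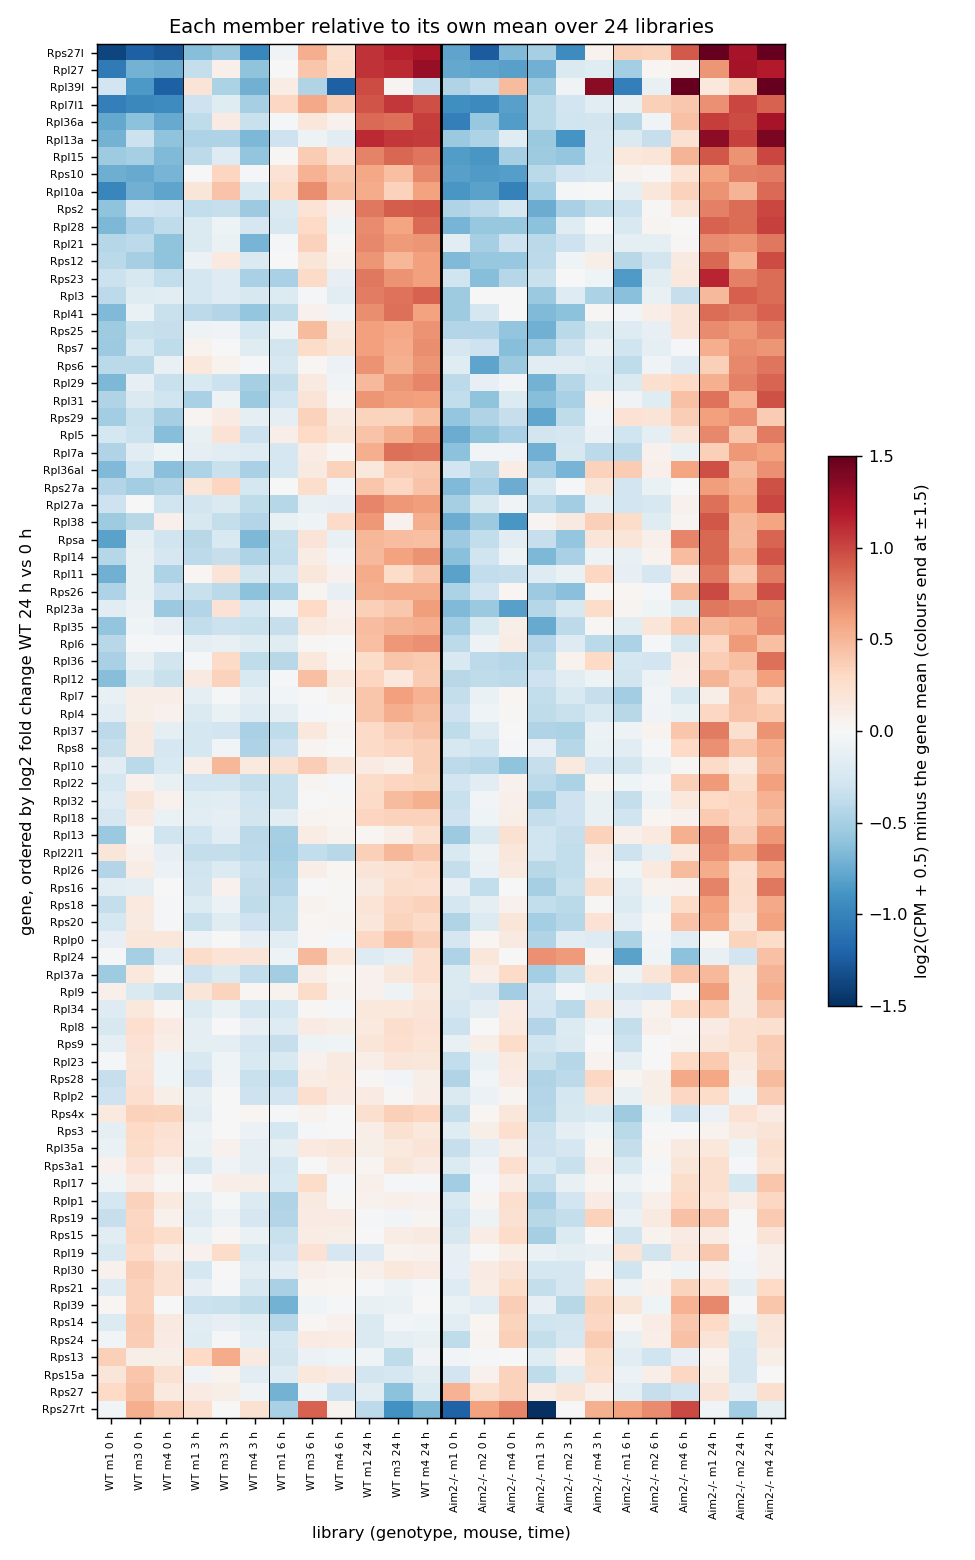
Of the tested members, 79 (rows, ordered by log2 fold change WT 24 h against 0 h) in 24 libraries (columns, 3 mice at each time, WT left of the thick line), as log2(CPM + 0.5) minus the gene's mean over all libraries. Red columns at 24 h in both genotypes run through the upper rows, from Rps27l (log2 fold change 2.48 in WT), and fade towards the lowest rows, where Rps27 and Rps15a are lower at 24 h in WT.

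The largest change at 24 h was that of Rps27l. Its levels in WT mice 1, 3 and 4 were 16.4, 18.2 and 17.5 CPM at 0 h, 27.5, 29.2 and 21.7 CPM at 3 h, 41.7, 63.3 and 51.03 CPM at 6 h, and 92.0, 97.7 and 102 CPM at 24 h. In Aim2-/- mice 1, 2 and 4 they went from 24.9, 17.9 and 27.2 CPM at 0 h to 128, 103 and 127 CPM at 24 h. Every 24 h library lay above every earlier one of its genotype. The log2 fold change at 24 h was 2.48 ± 0.224 in WT (edgeR adjusted p = 2.53e-09) and 2.35 ± 0.221 in Aim2-/- (edgeR adjusted p = 5.63e-09). Rps27l lies at chr9:66946086-66949516 (GRCm38), and 77.95% of its words are unique.

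Rps27 itself, at chr3:90212522-90213651, went the other way in WT. It was at 9.40, 10.5 and 8.42 CPM at 0 h, 4.43, 7.20 and 6.04 CPM at 6 h and 6.74, 4.78 and 6.47 CPM at 24 h. In WT the 24 h fold change was −0.65 ± 0.176 (edgeR adjusted p = 0.0024), and in Aim2-/- it was −0.28 ± 0.174 (edgeR adjusted p = 0.155). Rps27l thus made up 64.8% ± 2.38 (SD, n = 3) of the summed CPM of the pair at 0 h and 94.2% ± 1.09 at 24 h in WT, and 69.7% ± 3.52 and 93.6% ± 0.208 in Aim2-/-. With 1.36% unique words in Rps27, these are shares of the reads assigned to either gene, not of mRNA molecules. Its near-identical retrogene Rps27rt, with 8.95% unique words, ranged from 1.29 to 14.7 CPM over the libraries, and none of its comparisons passed the threshold.

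Rpl7l1, a relative of Rpl7 that acts in ribosome assembly, rose at every step. It was at 74.2, 77.3 and 78.6 CPM in WT at 0 h, at 123, 134 and 108 CPM at 3 h, at 189, 225 and 199 CPM at 6 h and at 293, 318 and 297 CPM at 24 h. The 4 times did not overlap. Its log2 fold change at 24 h was 1.98 ± 0.121 in WT (edgeR adjusted p = 6.38e-12) and 1.77 ± 0.12 in Aim2-/- (edgeR adjusted p = 4.46e-11). Its partner Rpl7 rose less, by 0.49 in WT and 0.42 in Aim2-/- at 24 h, and neither passed the threshold after the GC and length correction. Of the summed CPM of the pair, Rpl7l1 held 13.7% ± 0.686 at 0 h and 30.9% ± 0.71 at 24 h in WT, and its Aim2-/- values were 16.0% ± 1.62 and 32.6% ± 0.32.

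Rpl22 and Rpl22l1 did not follow this pattern. Rpl22 lay at 353, 443 and 392 CPM in WT at 0 h and at 514, 530 and 535 CPM at 24 h (log2 fold change 0.41 ± 0.146, edgeR adjusted p = 0.0161), and Rpl22l1, after its dip at 3 h and 6 h, reached 81.6, 89.6 and 84.4 CPM at 24 h (0.38 ± 0.127, edgeR adjusted p = 0.0121). In Aim2-/- the 24 h changes were 0.64 and 0.72. The share of Rpl22l1 in the pair was 14.3% ± 2.31 at 0 h and 13.9% ± 0.465 at 24 h in WT, and lowest at 6 h (10.7% ± 0.86). Rpl36al, the retrogene partner of Rpl36a, went in share from 50.03% ± 2.21 at 0 h to 36.4% ± 2.18 at 24 h in WT, and both genes rose: Rpl36a by 1.72 ± 0.195 (edgeR adjusted p = 8.74e-08) and Rpl36al by 0.90 ± 0.252 (edgeR adjusted p = 0.00323). Rpl39l remained under 1.71% of the pair with Rpl39 in every WT library, and its 24 h change of 2.03 ± 1.185 in WT did not pass (edgeR adjusted p = 0.131). In Aim2-/- its share reached 3.73% at 24 h, in mouse 4. There Rpl39l was at 6.52 CPM, against 0.929 and 1.16 CPM in Aim2-/- mice 1 and 2. Shares are given without a test. Rpl3, which lines the peptidyl transferase centre and has 14.5% unique words, rose by 1.07 in WT and 0.92 in Aim2-/- at 24 h. Rpl41, the smallest ribosomal protein, rose by 1.06 and 1.09. Rps4x did not pass (0.03 and 0.12), and Rpl39 was at −0.20 in WT and 0.35 in Aim2-/-, neither past the threshold.

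**Figure D4:**
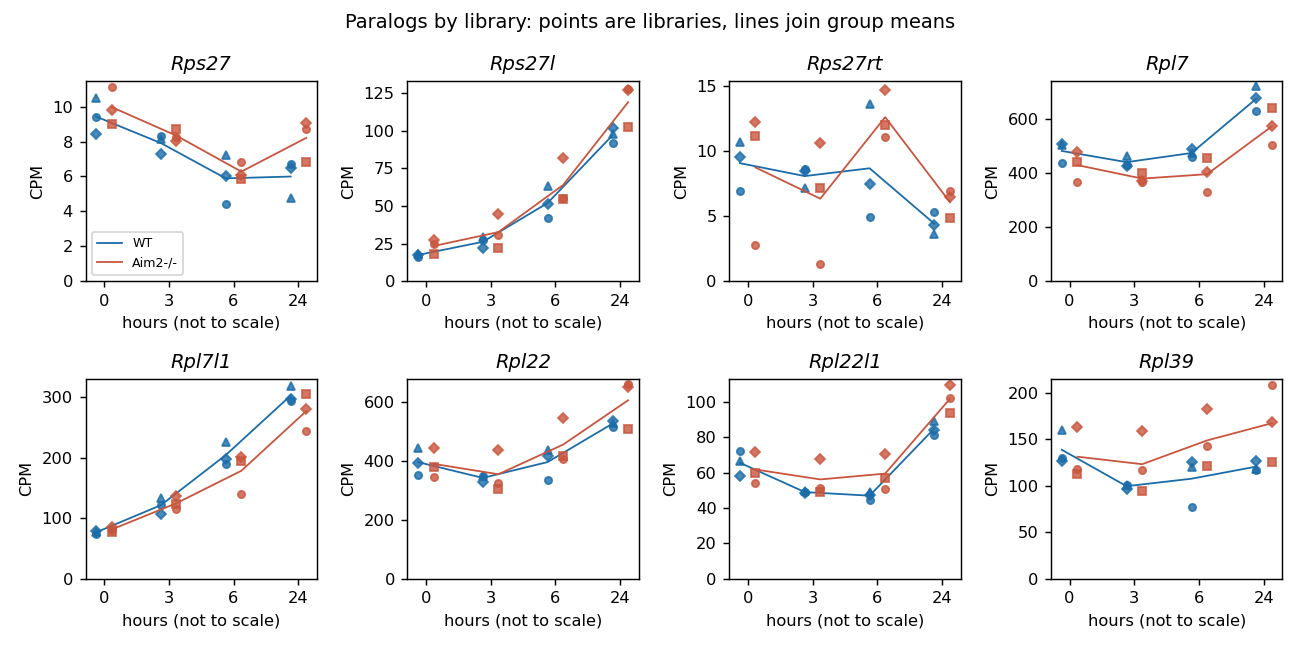
CPM (y axes, from 0) of 8 paralogous members at 0, 3, 6 and 24 h (x axes, not to scale); points are libraries (circle mouse 1, square mouse 2, triangle mouse 3, diamond mouse 4) and lines join group means, WT blue and Aim2-/- red. Rps27l and Rpl7l1 climb at every time in both genotypes, Rps27 is lower at 6 h than at 0 h, and Rps27rt scatters between 1.29 and 14.7 CPM.

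Other large rises at 24 h were found in genes of both subunits. Rpl27 went from 9.95, 12.8 and 12.5 CPM to 45.7, 47.0 and 53.4 CPM in WT (log2 fold change 2.05 ± 0.203, edgeR adjusted p = 1.09e-08) and from 12.3, 12.1 and 11.9 CPM to 34.1, 51.4 and 49.4 CPM in Aim2-/- (1.89 ± 0.202, edgeR adjusted p = 4.01e-08). Rpl13a, whose protein can leave the ribosome to silence inflammatory mRNAs in the GAIT complex, changed late. It was at 51.4, 67.2 and 55.3 CPM at 0 h, 67.6, 79.8 and 75.3 CPM at 6 h and 184, 176 and 174 CPM at 24 h in WT. Its change from 6 h to 24 h, 1.26 in WT and 1.36 in Aim2-/-, was among the largest of that step, and at 3 h it was at 0.00 in WT. Of its exonic bases, 35.4% are shared on the same strand with other annotated genes (Gm45713, Mir5121 and the small nucleolar RNA gene Snord33). Rpl15 rose by 1.39 in WT and 1.63 in Aim2-/-. Of the small subunit, Rps10 rose by 1.38 and 1.62 and Rps2 by 1.27 and 1.24.

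From 6 h to 24 h no member was called lower in either genotype. Of the 83 changes, 74 were above 0 in WT (lowest −0.975) and 79 in Aim2-/- (lowest −1.056). Besides Rpl13a the largest called rises were those of Rpl3 (0.95) and Rpl27 (0.95) in WT and of Rps23 (1.24) and Rpl27 (1.19) in Aim2-/-. In WT 40 rose (background 29.6% rising and 28% falling, 57.6% in all), with 42 members at an unadjusted p under 0.05 in either direction, and in Aim2-/- 51 rose (background 27.4% and 27%), with 53. Without WT mouse 1 the WT count was 23, so that mouse moved it by more than 1.5 times. Other settings called up to 2 members lower, the mouse block 1 in each genotype.

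The 3 members called lower at 24 h in WT were Rps27, Rps15a and Rps13. Rps15a was at 443, 522 and 457 CPM at 0 h and at 322, 327 and 351 CPM at 24 h (log2 fold change −0.51 ± 0.158, edgeR adjusted p = 0.00704). The groups did not overlap. In Aim2-/- the change was −0.11 ± 0.158 (edgeR adjusted p = 0.545). Rps13 changed by −0.35 ± 0.144 in WT (edgeR adjusted p = 0.0334) and did not pass when its -ps rows were added. Neither Rps15a nor Rps13 was called without WT mouse 3, Rps13 was also lost without WT mouse 1, and Rps15a after the GC and length correction. The 24 h responses of Rps27, Rps15a and Rps13 were not called different between genotypes.

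Beside the genes described one by one, other members rose in both genotypes at 24 h. Rpl28 rose by 1.25 in WT and 1.56 in Aim2-/-. Rps12 rose by 1.11 and 1.42, Rpl21 by 1.19 and 1.08, Rps25 by 1.04 and 1.21, and Rps7 by 1.04 and 1.07. Rps27a, made as a fusion with ubiquitin, rose by 0.88 in WT and 1.38 in Aim2-/-. Rps20, Rpl26 and Rpl13 passed in Aim2-/- (0.60, 0.56 and 0.73) and not in WT (0.31, 0.36 and 0.38), with no called difference between these responses. In each WT mouse all of them were higher at 24 h than at 0 h, a pairing that the test did not use. Rps24, Rps21, Rpl19, Rps19, Rps3a1, Rpl35a and Rps9 did not pass in either genotype, and their changes lay between −0.32 (Rps24) and 0.15 (Rps9) in WT and between 0.02 (Rps24) and 0.31 (Rps19) in Aim2-/-.

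Several of the most abundant members moved little in CPM, that is, relative to the other mRNA of a library. Rpl8, whose words are 92.3% unique, was at 1657, 2319 and 2134 CPM in WT at 0 h and at 2173, 2355 and 2272 CPM at 24 h, and the groups overlapped. Within each mouse of both genotypes, Rpl8 was higher at 24 h than at 0 h. In the test on group means, which does not pair the times of a mouse, its 24 h change was 0.15 ± 0.142 in WT (edgeR adjusted p = 0.339). In Aim2-/- it was 0.24 ± 0.142 (edgeR adjusted p = 0.139). Rps15 (−0.07 and 0.04) and Rps3 (0.02 and 0.06), a small-subunit protein with a second role in DNA repair, did not pass in either genotype. Rpl4 rose, from 2230, 2658 and 2624 CPM to 3337, 3658 and 3484 CPM in WT (0.48 ± 0.105, edgeR adjusted p = 0.000365).

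Grouped by level, the 35 members at 200 CPM per kb or more had WT medians of −0.206 after 3 h, −0.077 after 6 h and 0.154 after 24 h, with 12 higher and 1 lower at 24 h. The 17 members between 50 and 200 CPM per kb had medians of 0.014, 0.229 and 0.948, with 14 higher. The 31 under 50 CPM per kb had 0.28, 0.418 and 0.874, with 21 higher and 2 lower. Of all tested genes, 36.6% were called higher and 34.8% lower at 24 h in WT. The 12 of 35 members called higher at the highest level lie near that share, and their 1 lower call lies below it. In Aim2-/- the 24 h medians of the 3 classes were 0.326, 0.905 and 1.10. Across the 83 members, level per kb and log2 fold change had a Spearman rho of −0.681 at 3 h and −0.425 at 24 h in WT, and of −0.644 and −0.523 in Aim2-/-. These describe genes of the same libraries, and level and change were measured on the same counts. The unique share gave weaker values of −0.407 and −0.133 in WT.

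Split by sharing, the members formed 2 classes that also differed in level. The median level was 315.9 CPM per kb at 50% unique words or more and 49.1 CPM per kb below. What sharing adds to level was not tested. Among the 29 tested members with at least 50% unique words, 12 rose and 1 fell at 24 h in WT, with a median of 0.299. The 54 below 50% had 35 higher, 2 lower and a median of 0.75. With 36.6% of all tested genes called higher and 34.8% lower, the 12 of 29 lie near the share called higher. In Aim2-/- the medians were 0.398 and 0.815. Adding the -ps rows to their parent genes left the 24 h calls within 1.5 times of the main count in both genotypes. The part of reads lost to copies of other names in this difference was not tested.

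Members with known particular roles were read one by one at 24 h. In the stalk, Rplp0 was at 0.30 ± 0.125 in WT (edgeR adjusted p = 0.0382, lost without each of the 3 WT mice in turn) and 0.24 in Aim2-/-, and Rplp1 (−0.03 and 0.18) and Rplp2 (0.06 and 0.29) did not pass. Rpl5 and Rpl11, which join 5S rRNA in the particle that can bind MDM2, both rose: Rpl5 by 0.96 ± 0.149 in WT (edgeR adjusted p = 6.47e-06) and 1.27 in Aim2-/-, and Rpl11 by 0.84 ± 0.187 (edgeR adjusted p = 0.000408) and 1.18. Only 6.22% of the words of Rpl5 are unique, and 37.8% of those of Rpl11. Of the exonic bases of Rpl5, 24.3% lie opposite another gene, and the strand setting of the counting was not given. Rps6 was at 3.55, 3.57 and 4.46 CPM in WT at 0 h and at 8.06, 7.25 and 7.96 CPM at 24 h, without overlap (1.00 ± 0.185, edgeR adjusted p = 5.48e-05), and rose by 1.24 in Aim2-/-. Rpsa, the laminin receptor protein of the small subunit, rose by 0.87 and 1.10.

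TOP mRNAs have their pyrimidine run at the very 5′ end, and runs of pyrimidines near RefSeq starts were looked for on GRCm38.p6. A run was at least 8 consecutive letters C or T on the strand of the gene, within a window from 15 bases before the annotated start to 15 bases from it on. A run may lie on either side of the annotated start, so it is not by itself a TOP motif. Such runs were in 12% of all 32851 starts and in 28 of the 77 starts of members (36.4%). Of the 65 members with a start in the table, 27 had a run (41.5%). Tested members with a run had a median 24 h change of 0.48 in WT and 0.732 in Aim2-/- (n = 27), and those without had 0.471 and 0.796 (n = 36). The 6 windows below, with the longest run in capitals, show 4 members that rose at 24 h and then Rps27 and Rps15a, which fell in WT. They were picked after the values were seen, and they show runs at both ends of the response. In Rps27l and Rps15a the run ends before the annotated start, and in the others it spans the start.
Rps27l (chr9:66946071-66946100, + strand): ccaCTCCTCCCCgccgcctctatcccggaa
Rpl15 (chr14:18270972-18271001, − strand): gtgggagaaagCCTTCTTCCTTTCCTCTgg
Rps10 (chr17:27635230-27635259, − strand): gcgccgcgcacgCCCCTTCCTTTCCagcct
Rps6 (chr4:86857353-86857382, − strand): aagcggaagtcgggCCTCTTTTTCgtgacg
Rps27 (chr3:90213634-90213663, − strand): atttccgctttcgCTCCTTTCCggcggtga
Rps15a (chr7:118116133-118116162, − strand): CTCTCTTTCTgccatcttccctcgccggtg

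Ribosome biogenesis factors and mitochondrial ribosomal proteins had larger median changes at 24 h than the cytosolic ribosomal proteins. Of all tested genes, 16.2% were called higher and 16.4% lower at 3 h in WT, and 16.1% and 14.6% in Aim2-/-. At 24 h these shares were 36.6% and 34.8% in WT, and 36.8% and 33.5% in Aim2-/-. Of 34 ribosome biogenesis factors, 26 were called higher at 3 h in WT and in Aim2-/- (76.5%). At 24 h 33 were called higher (97.1%) and none lower in each, with medians of 2.06 and 1.85. Nhp2 and Gar1, proteins of the H/ACA particles that guide pseudouridylation of rRNA, rose by 3.65 and 3.36 in WT at 24 h, and Rpf2, which brings the 5S particle into the pre-60S subunit, by 3.53. Of 77 tested mitochondrial ribosomal proteins, 75 rose at 24 h in WT and 76 in Aim2-/-, with medians of 1.67 and 1.61. Of 14 other TOP mRNAs, which encode translation factors and related proteins, none was called at 3 h in WT and 5 were called lower in Aim2-/-. At 24 h, 10 rose and 1 fell in WT, and 8 rose and 1 fell in Aim2-/-. Their 24 h medians were 0.479 and 0.516, beside 0.462 and 0.743 for the members. Npm1, a nucleolar chaperone, rose by 2.59 in WT and Tpt1 fell by 1.04.

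Genes that bring ribosomal proteins to assembly or govern TOP mRNAs were read from lists as well. Of 7 ribosomal protein chaperones, 6 were called higher and 1 lower at 24 h in each genotype (85.7% and 14.3%). For all tested genes these shares were 36.6% and 34.8% in WT, and 36.8% and 33.5% in Aim2-/-. Grwd1, the chaperone of Rpl3, rose by 3.20 in WT and 2.74 in Aim2-/-. Of 11 regulators of TOP mRNAs and mTORC1, 5 were called higher and 4 lower at 24 h in each genotype (45.5% and 36.4%). Those shares lie near the ones of all tested genes, so the counts are not a result about this list. Myc, a transcription factor that drives ribosome production, had risen by 2.60 at 3 h in WT, when the members' median was −0.097. Larp1 rose by 1.52 and Tsc1, part of the brake on mTORC1, fell by 1.37 at 24 h in WT.

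**Figure D5:**
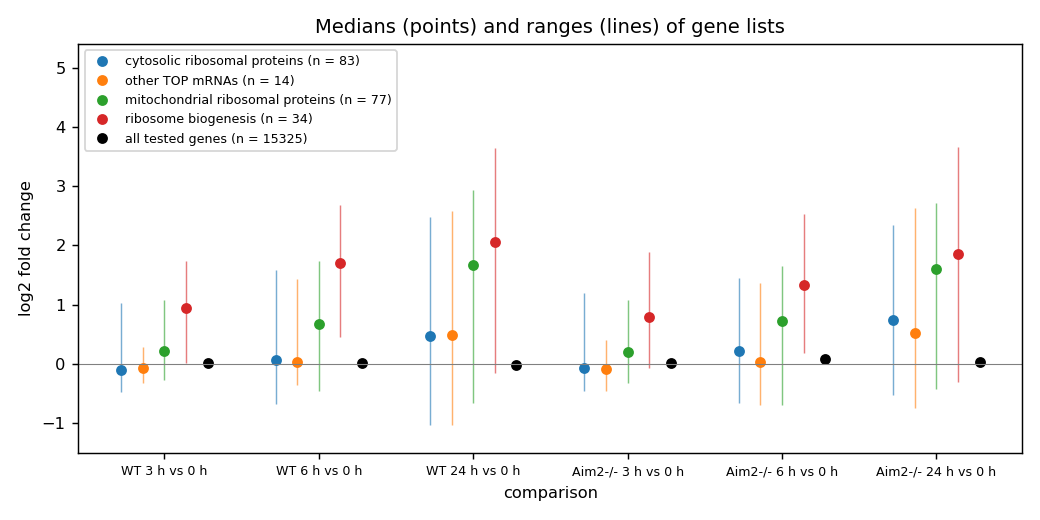
Median (points) and range from lowest to highest member (lines, not drawn for all genes) of the log2 fold change against 0 h (y axis) for 5 gene lists in 6 comparisons (x axis). At 3 h the cytosolic ribosomal proteins lie near the all-gene median while biogenesis factors are at 0.95 in WT, and at 24 h they are at 0.462 in WT and 0.743 in Aim2-/-, below the mitochondrial ribosomal proteins and the biogenesis factors.

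The second question was whether the levels differed between the genotype labels. No member was called in edgeR's main test with TMM factors at any of the 4 times. Other settings called up to 5, and a block by the mouse numbers that the genotypes share up to 19. Shares of all tested genes in those other fits are not given here, so their counts are not a result about the members. In the main test the background at 0 h was 5.23% of tested genes called (3.24% higher in Aim2-/- and 1.99% lower). There, 3 members had an unadjusted p under 0.05. At 3 h it was 0.294% (0.254% and 0.0392%), with 5 such members. At 6 h it was 15.8% (8.78% and 7.01%), with 10 such members, and at 24 h 0.666% (0.659% and 0.00653%), with 5. DESeq2's Wald test called no member at 0 h and 24 h, 1 lower at 3 h and 3 lower at 6 h. The median difference, Aim2-/- minus WT on the log2 scale, was −0.067 in unstimulated cells, −0.049 at 3 h, 0.04 at 6 h and 0.154 after 24 h. Without WT mouse 1 the counts were also 0 at all 4 times, with 3, 4, 11 and 3 members at an unadjusted p under 0.05. The medians were then −0.14, −0.053, −0.079 and 0.156, so that the sign at 6 h turned. Without Aim2-/- mouse 2, 1 member was called at 3 h, 5 at 6 h and 2 at 24 h. The smallest adjusted p in the main test was that of Rpl10 at 6 h, at 30.4 CPM in Aim2-/- and 39.7 CPM in WT on average (log2 difference −0.39 ± 0.137, edgeR adjusted p = 0.0576, and −0.41 ± 0.16 with 0.0998 without WT mouse 1). Rpl10 had 7.88% unique words.

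Some neighbours of the ribosomal proteins did differ at 6 h. Of the 34 biogenesis factors 12 (35.3%) were called lower in Aim2-/-, against 7.01% of all tested genes, with a list median of −0.42. Myc was lower by 0.59 ± 0.189 (edgeR adjusted p = 0.0405), while the 83 members had 46 differences above 0 and 37 at or below it. Without WT mouse 1, 5 biogenesis factors were called lower, with a median of −0.45, Myc was at −0.69 ± 0.218 and no longer passed (edgeR adjusted p = 0.0505), and 30 members were above 0 and 53 at or below it. Cell markers differed at the same time, with 2 of 9 myeloid and 2 of 7 B cell markers called higher in Aim2-/-, and the same counts without WT mouse 1. In the main test 8.78% of all tested genes were called higher.

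The third question was whether the response itself differed. No member was called for a genotype difference in the 3, 6 or 24 h response, where the background was 0%, 0.0261% and 0% of tested genes, and 1, 2 and 5 members had an unadjusted p under 0.05. DESeq2 also called none, and the fit with mouse as a block called 1 member, higher, in the 6 h response. The fit without WT mouse 1 called none, with 1, 1 and 2 members at an unadjusted p under 0.05. The member with the smallest unadjusted p was Rpl38 at 3 h, whose response was larger in Aim2-/- by 1.30 ± 0.381 (edgeR adjusted p = 0.947), and by 1.52 ± 0.437 without WT mouse 1 (edgeR adjusted p = 0.847). At 24 h it was larger by 0.58 ± 0.199 for Rpl9 (edgeR adjusted p = 0.248) and by 0.83 ± 0.337 for Rpl23a (edgeR adjusted p = 0.327), and without WT mouse 1 by 0.45 ± 0.227 and 0.71 ± 0.385 (edgeR adjusted p = 0.43 and 0.477). Of the 83 differences in the 24 h response, 70 were above 0, with a median of 0.232, beside 0.012 for all tested genes. Leaving out WT mouse 1, 72 were above 0, with a median of 0.283. Members share libraries, so the first count is that of 6 mice and not of 83 independent genes, and mouse 1 of Aim2-/- started at the lowest level of all.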

How the data were processed

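RNA from splenic CD4+ T cells was sequenced from TruSeq stranded mRNA libraries as single-end reads. The authors deposited raw counts per gene; per the labels the tools were STAR, DESeq2 and edgeR on GRCm38, without versions, and the methods name Ensembl annotation GRCm38.94. The strand setting of the counting and the treatment of reads with several matches were not given in the sources used here. The 51-base read length is that of the methods, which do not describe this time course.

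Groups came from the labels. Gene names and types were taken from GENCODE M21 by gene ID, which matched 54409 of 54446 rows. Counts were analysed in R 4.3.3 with edgeR 4.0.16 (filterByExpr with a minimum count of 10, TMM factors, quasi-likelihood F test on 8 group means), which tested 15325 genes. Calls had a Benjamini-Hochberg adjusted p under 0.05 within a comparison. The biological coefficient of variation was 18.6%. CPM values used the summed counts of the tested genes, scaled by the TMM factors. Levels per kb used the length of the shortest principal coding mRNA. CPM of the -ps rows, and of the genes set beside them, used the total counts of a library. Steps were tested on simulated data. Alternatives were limma 3.58.1, DESeq2 1.42.0, other scalings and filters, a GC and length correction, marker scores, mouse blocks and leaving out each mouse. Named genes were the 5 highest and 5 lowest members by level and the 3 largest called rises and falls of each comparison. Also named were calls against the majority, paralogs with their partners, stalk, 5S particle and other members with known roles. Up to 4 genes were named per other list. Others were picked after their values were seen, those listed together at 24 h among them. Some genes that the rule names are not reported here and are left out of the plots by gene, but counts and medians include them. Members and lists were chosen with earlier results of these data known.

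Every mouse gave libraries at all 4 times, so mouse pairs the times. The edgeR p-values printed for single genes did not use this pairing. Over all tested genes, deviations from group means correlated between libraries of 1 mouse with r of 0.139 to 0.567 in 36 pairs. Between different mice of a genotype, r was −0.432 to 0.0742 in 72 pairs. Deviations from a group mean cancel out within the group, which by itself pulls the latter values down, so the contrast is partly built in. Over the tested members, r within a mouse ranged from −0.287 to 0.791, with a median of 0.505.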

Additional observations from a re-analysis of the deposited data

Results flagged for a closer look

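Rows named as pseudogenes were outside the comparisons, and 2 of them carried more counts than the gene they are named after. Rps13-ps2 had a mean of 26.6 CPM over the 24 libraries, with 17.7 CPM in the lowest and 35.1 CPM in the highest, above Rps13 with 16.2 CPM. Rps10-ps1 had 12.2 CPM, from 6.91 to 20.2 CPM, above Rps10 with 11.4 CPM. Both are annotated as processed pseudogenes, and whether the reads came from them or from the genes was not tested.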

How the results depend on the processing

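The 24 h counts against 0 h stayed within 1.5 times of 50 in WT and 56 in Aim2-/- in every setting tried. Of 309 counts of called members under an alternative, 263 were within 1.5 times; of 2880 values for 160 single-gene results, 2622 kept direction and call, 258 lost the call and 0 reversed. Where a count moved, the cause was not tested. Unless a share of all tested genes stands beside it, a count under an alternative shows only how the calls on members moved.

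With mouse as a fixed block, the replicate block that the design supports, the counts were 26 (WT 3 h), 34 (WT 6 h), 15 (WT 6 h against 3 h), 29 (Aim2-/- 3 h, where the majority turned to lower, 14 against 15), 38 (Aim2-/- 6 h), 30 (Aim2-/- 6 h against 3 h) and 1 (genotype difference in the 6 h response). As a random block they were 24 (WT 3 h), 13 (WT 6 h against 3 h), 21 (Aim2-/- 3 h), 26 (Aim2-/- 6 h against 3 h) and 2 (genotype at 6 h). The mouse numbers shared by the genotypes mark no common litter or day in the labels. As a replicate block they gave 3, 6, 19 and 18 members between genotypes at 0, 3, 6 and 24 h. The share of all tested genes called in that fit is not given here, so these counts are not a result about the members.

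Library totals gave 19 (WT 3 h), 36 (Aim2-/- 6 h) and 1 (genotype at 6 h). RLE factors gave 9 (Aim2-/- 6 h against 3 h) and 1 (genotype at 6 h). The compared libraries alone gave 5 (Aim2-/- 3 h), 14 (Aim2-/- 6 h) and 1 (Aim2-/- 6 h against 3 h). The GC and length correction gave 7 (Aim2-/- 6 h against 3 h), 1 (genotype at 0 h) and 5 (genotype at 6 h). At 6 h no filter, a mean of at least 1 CPM and DESeq2 each gave 3 between genotypes, and DESeq2 gave 1 at 3 h. Members summed with their -ps rows, chosen after seeing the data, gave 8 (Aim2-/- 6 h against 3 h).

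Leaving out 1 mouse gave 3 to 15 (WT 3 h), 15 to 24 (WT 6 h), 41 to 53 (WT 24 h), 2 to 8 (WT 6 h against 3 h) and 23 to 42 (WT 24 h against 6 h). In Aim2-/- it gave 3 to 15 (3 h), 15 to 22 (6 h), 50 to 58 (24 h), 3 to 15 (6 h against 3 h) and 40 to 52 (24 h against 6 h). WT 6 h against 3 h gave 3 without WT mouse 3 and 2 without WT mouse 4. Aim2-/- 6 h against 3 h gave 8 without WT mouse 3, 8 without WT mouse 4, 6 without Aim2-/- mouse 1 and 3 without Aim2-/- mouse 2. Genotype counts ranged from 0 to 1 at 3 h, 0 to 5 at 6 h and 0 to 2 at 24 h, and were 0 at 0 h.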
